A study of Drosophila melanogaster with 6 samples.

Results

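The genes described here build, load and fire the DNA replication machinery of Drosophila S2 cells, or decide whether a cell leaves G1 for S phase. S2 is an established cell line with macrophage features, derived from fly embryos. The 38 genes were listed by name and function, with earlier results of these data known, and are set here in the order of their roles: G1/S control, origin recognition, licensing, the replicative helicase, the sliding clamp and its loader, nucleotide supply and chromatin assembly. Of the 38, 36 were found by symbol among the 17830 genes of the table, and 2 by a synonym in the RefSeq gene table, lat as Orc3 and CDC45L as Cdc45. The 3 subunit genes of the single-strand binding protein RPA, which belong to the same machinery, were left out of the list, and 2 of them were called higher after knockdown (RpA-70, log2 1.53, and RPA3, log2 1.71, edgeR adjusted p = 0.00557 and 0.0123, while RPA2 was at -0.14; without control replicate 1 RPA3 had 0.0501), so the count of members that rose depends on that choice.

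The study asked whether the RNA helicase Brr2, which unwinds the U4 and U6 small nuclear RNAs when the spliceosome is activated, widely affects the making of circular RNA. Total RNA depleted of ribosomal RNA was sequenced in 3 libraries from cells labelled Brr2 knockdown and 3 from control cells labelled WT. All 6 carry RNAi as their treatment. The protocol gives 8 μg of double-stranded RNA for 30 min in serum-free medium, while the titles carry the prefix sh. The sources used here give neither the sequence used in the control nor the time from treatment to harvest. Since the labels do not state that the 3 libraries of a group came from separate cultures, a p-value here reflects library-to-library spread, which may be technical.

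In G1, the origin recognition complex sits on DNA and, with Cdc6 and Cdt1 (dup in the fly), loads the ring of MCM subunits that will become the replicative helicase; geminin blocks Cdt1 once S phase has begun. Cyclin E with Cdk2 then fires the loaded origins, Cdc45 and the GINS complex join the MCM ring, and the clamp PCNA holds polymerases on DNA. Many of these genes are targets of E2F transcription factors, which the retinoblastoma proteins hold in check until cyclin-dependent kinases release them, so their RNA is known to rise together as cells enter S phase.

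Libraries held 127654975 to 147620403 estimated counts. The Brr2 gene, listed as l(3)72Ab, was at 158.1, 198.5 and 221.1 CPM (counts scaled to a common library size with TMM factors, the level used throughout) in control libraries and at 108.5, 94.02 and 99.8 CPM in knockdown libraries, a fall to 52.3% of control (edgeR adjusted p = 0.0111). The hemocyte transcription factor srp, at 96.4 to 114.0 CPM in control libraries, and the receptor Pvr, at 1347 to 1443 CPM, were abundant, whereas Hml, NimC1, He and Sr-CI stayed under 1 CPM there. Of 10 hemocyte genes 1 rose (He, from a mean of 0.322 CPM to 3.11 CPM) and 2 fell (Pvr and Pxn). The summed level of the 10 was 1826 to 1884 CPM in control libraries against 789.4 to 1138 CPM after knockdown. Most of that sum was Pvr, at 412.8 to 720.8 CPM after knockdown; the other 9 genes summed to 383.2 to 536.6 CPM and 364.5 to 417.0 CPM. The germline, ovarian, glial and muscle genes vas, nos, bam, tj, repo and Mhc stayed at or below 0.957 CPM in every library, while the neural gene elav was at 22.1 to 32.0 CPM. Transposon copies took 19.4% to 23.6% of the counts in control and 35.7% to 36.7% in knockdown libraries. The part of these shifts in the results below was not tested.

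Control replicate 3 stood apart from the other control libraries in most of these genes. It held the highest control level for 34 of the 37 members that could be tested, against 39.6% of all tested genes, and its level was a median of 1.50 times the mean of control replicates 1 and 2, against 1.011 times over all tested genes. The 3 members for which it was not highest were Cdk4, E2f1 and Rbf2. Mcm5 shows the gap: it was at 28.3 and 29.8 CPM in control replicates 1 and 2 and at 55.5 CPM in control replicate 3, while the knockdown libraries were at 26.1, 30.5 and 34.0 CPM. Among the knockdown libraries replicate 1 was lowest in 23 of the 37 members, against 35.8% of all tested genes. The median coefficient of variation over the members was 26.1% between control and 13.6% between knockdown libraries. Where leaving out that library moved a member's log2 fold change by over 1.5 times or turned its sign, the value without it is given below.

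**Figure D1:**
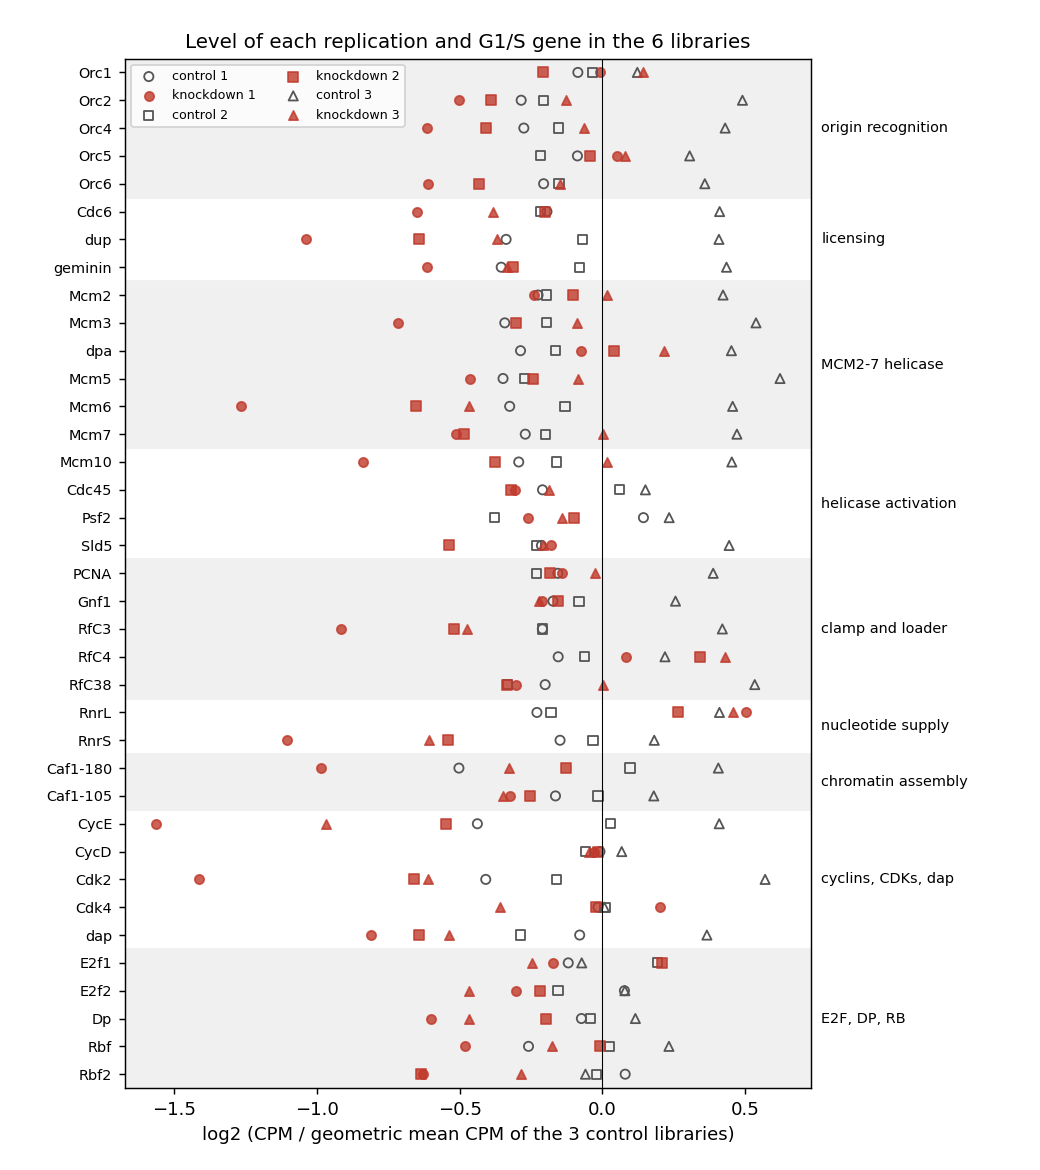
Level of each tested gene in each library, as log2 of its CPM over the geometric mean of the 3 control libraries (horizontal axis), with genes grouped by role. Open symbols are control and filled symbols knockdown libraries, with a circle, square and triangle for replicates 1, 2 and 3; the open triangle lies farthest right among the control libraries in 34 of 37 genes.

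After Brr2 knockdown RnrS, the small subunit of ribonucleotide reductase, and dap, the fly inhibitor of cyclin E and Cdk2, fell, and 0 members rose. In RNA from a whole culture, a smaller share of cells in S phase and less RNA per cell cannot be told apart. Of the 37 tested members 5.41% were thus called lower, beside 9.63% of all 11590 tested genes, of which 8.05% were called higher (edgeR quasi-likelihood test, Benjamini-Hochberg adjusted p under 0.05 over all tested features). The log2 fold change was below 0 in 33 of 37 members and in 51.3% of all tested genes, with medians of -0.34 and -0.02. Without control replicate 3 the median over the members was -0.09, with 27 below 0, beside 0.03 over all genes.

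In 11 of the 37 members, 29.7%, all 3 knockdown libraries lay below all 3 control libraries, against 21.7% of all tested genes, and in 0 members did all knockdown libraries lie above, against 20.1%. The 11 were RnrS, dap, CycE, Cdk2, dup, Mcm6, RfC3, Caf1-105, E2f2, Dp and Rbf2. Compared with control replicates 1 and 2 alone, the knockdown libraries again lay below in 11 members and in 28.1% of all genes, and they lay above in 4 members and in 27.3% of all genes.

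The number of calls depended on the model. With a replicate block for the pairing of same-numbered libraries, 7 members, 18.9%, were called lower (RnrS, dap, CycE, Cdk2, dup, Mcm6 and RfC3), beside 14.3% of all genes. DESeq2 called those 7 and also Dp and Rbf2, 24.3% of the members, beside 15.2% of all genes, and scaling by total counts alone added Caf1-105 and E2f2 to make 11, or 29.7%, beside 24.1%. In these 3 fits the share of members called lower was above that of all genes. In the edgeR fit with TMM scaling and group as the only term it was below. Scaling with DESeq2 size factors, limma voom and testing genes only each called 5.41% of members lower. Over all features these fits called 1192 of 14167, 1244 of 14167 and 1085 of 11626 lower. A minimum mean of 5 CPM gave 2.7%, beside 925 of 7248 features. Upper quartile scaling and testing without a filter gave 0%, beside 877 of 14167 and 710 of 21214 features. Without control replicate 3, 0 members were called lower and 1, RnrL, was called higher, beside 8.4% and 7.62% of all genes. Without knockdown replicate 2, 3 members (RnrS, CycE and Dp), 8.11%, were lower, beside 1215 of 14920 features. Leaving out control replicate 1 or 2 left 0 members called lower, beside 310 of 14900 and 507 of 14903 features. Leaving out knockdown replicate 1 or 3 also left 0, beside 312 of 14858 and 388 of 14541 features. With all libraries 1208 of 14167 features were called lower.

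**Figure D2:**
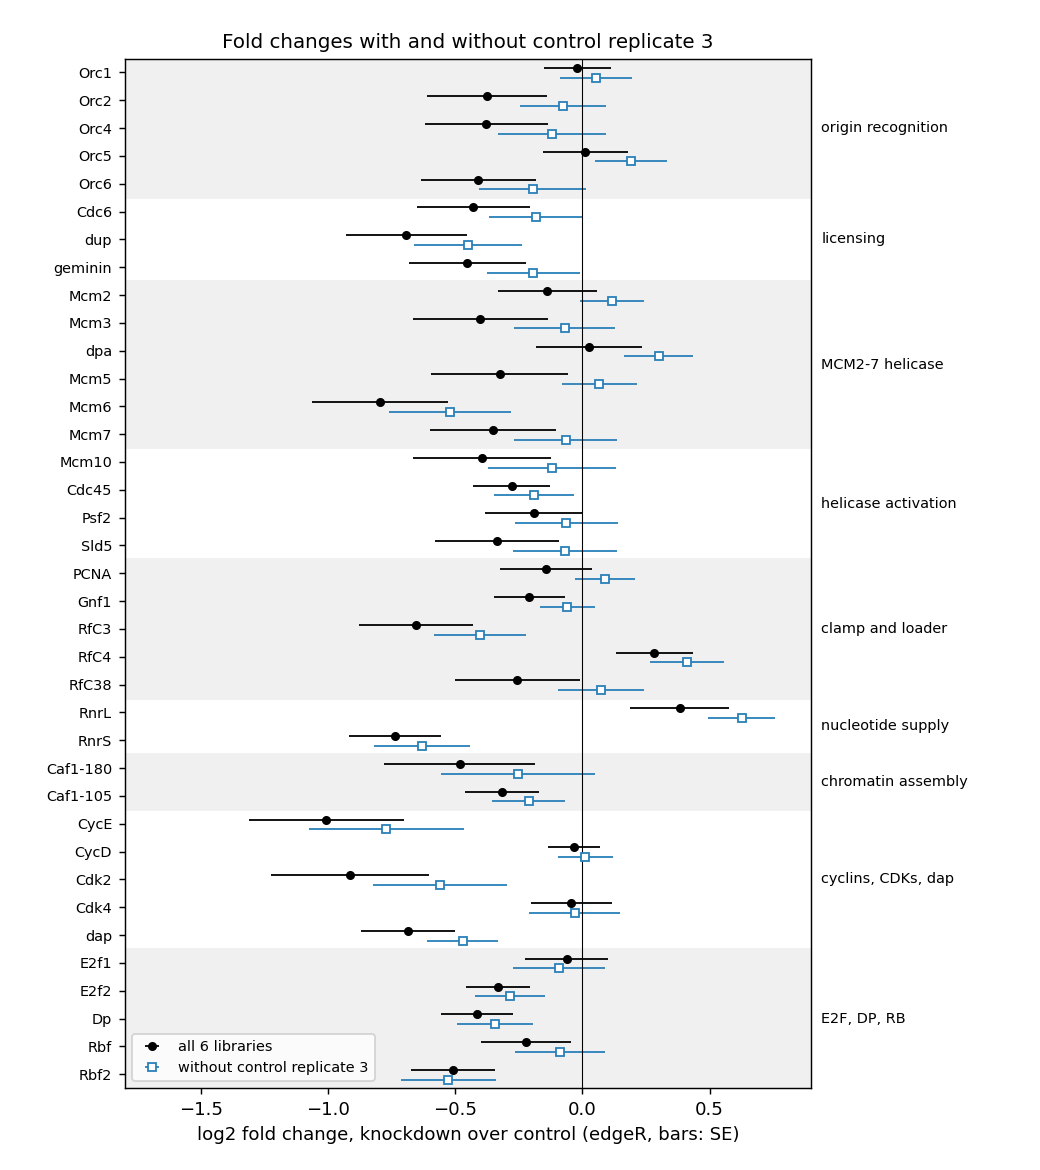
Log2 fold change of each tested gene, knockdown over control, with its standard error (bars), from all 6 libraries (black circles) and without control replicate 3 (open blue squares). Leaving that library out moved the median from -0.34 to -0.09, and moved RnrL from 0.38 to 0.63.

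Among the 5 cyclins, kinases and inhibitors of the G1/S step, 1 fell (dap) and 4 did not pass. CycE, the cyclin that drives entry into S phase, was at 14.9, 20.6 and 26.8 CPM in control libraries and at 6.83, 13.8 and 10.3 CPM in knockdown libraries. All knockdown values lay below all control values, but by little between knockdown replicate 2 and control replicate 1. Its log2 fold change of -1.008 (SE 0.304) did not pass (edgeR adjusted p = 0.0611), and with the replicate block it passed (-1.03, adjusted p = 0.0173). Without control replicate 3 it was -0.77 (adjusted p = 0.134).

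Its partner kinase Cdk2 was at 15.8, 18.8 and 31.1 CPM in control libraries against 7.86, 13.3 and 13.7 CPM after knockdown. The log2 fold change came to -0.91 (SE 0.312, edgeR adjusted p = 0.0851), and -0.90 (adjusted p = 0.0186) with the block. Without control replicate 3 it was -0.56 (adjusted p = 0.186). Of the exons of Cdk2, 43.9% overlap CG17267 on the opposite strand, which was at or below 0.194 CPM in every library.

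The inhibitor dap (chromosome 2R, 9712321 to 9716256, plus strand, 2 introns) was at 37.5, 32.5 and 51.1 CPM in control libraries and at 22.6, 25.4 and 27.3 CPM in knockdown libraries. Its groups did not overlap, and it fell to 62.1% of control (log2 -0.69, SE 0.185, edgeR adjusted p = 0.0448). Leaving out any 1 of the 6 libraries ended that call (adjusted p between 0.0510 and 0.153), as did upper quartile scaling (0.0729), testing without a filter (0.0776) and a minimum of 5 CPM (0.0509).

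CycD, whose kinase complex links growth to the cycle, was at 45.9, 44.4 and 48.4 CPM in control libraries and at 45.3, 45.7 and 44.7 CPM in knockdown libraries. These 6 values overlap and span a narrow range. The log2 fold change was -0.03 (SE 0.103), with a sign that flipped with upper quartile scaling and without control replicate 3 (0.01). Cdk4, its partner, was at 22.4 to 22.8 CPM in control libraries and at 26.03, 22.3 and 17.7 CPM in knockdown libraries, so its control libraries were alike and its knockdown libraries spread to both sides of them.

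The CycD to CycE ratio of counts was 3.08, 2.15 and 1.81 in control libraries and 6.63, 3.31 and 4.33 in knockdown libraries, a log2 difference of 1.00 (SE 0.370). The groups did not overlap. The exact 2-sided permutation p was 0.1, the smallest that 3 against 3 allows, and 0.3 after adjustment over the 12 ratios compared. The CycE to dap ratio overlapped between groups, at 0.397 to 0.634 in control and 0.303 to 0.544 in knockdown libraries (exact p = 0.3).

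**Figure D3:**
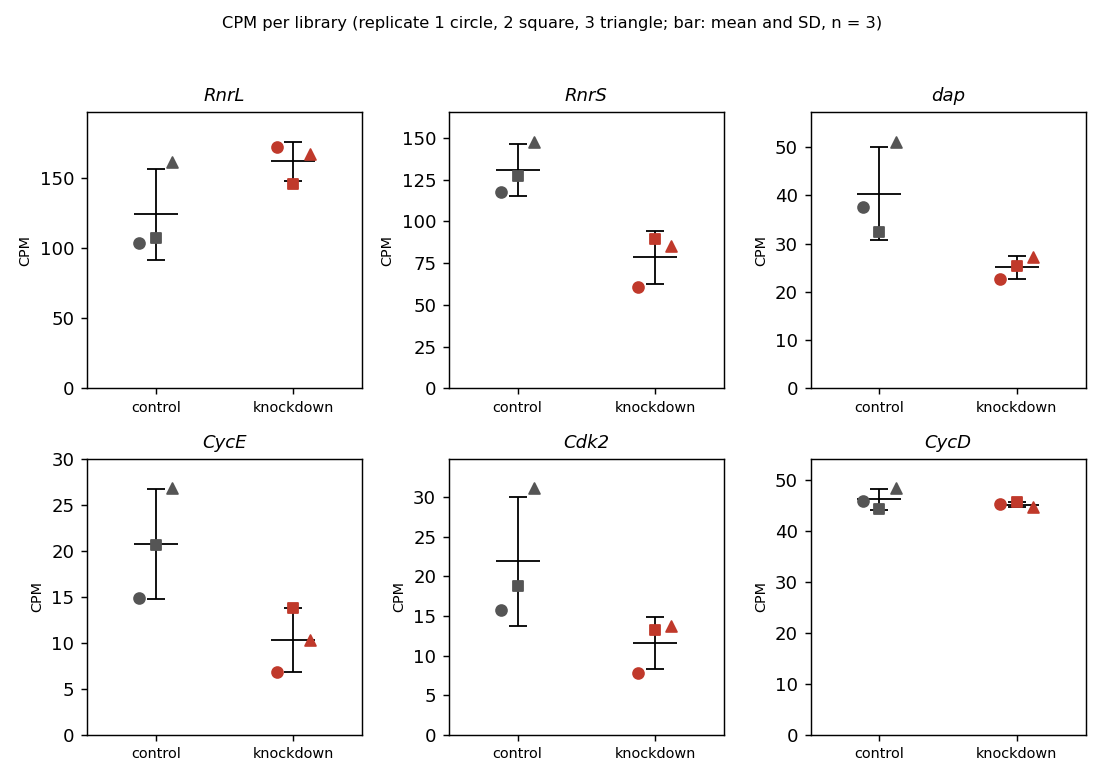
CPM in each library (points; circle, square and triangle for replicates 1, 2 and 3) with mean and SD (bars, n = 3 per group) for the ribonucleotide reductase subunits RnrL and RnrS and the G1/S genes dap, CycE, Cdk2 and CycD. RnrS and dap lie lower in all knockdown libraries, RnrL lies at 146.1 to 172.6 CPM in knockdown libraries, and CycD keeps between 44.4 and 48.4 CPM in all 6.

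Of the E2F and retinoblastoma genes, 0 of 5 passed, and all 5 had log2 fold changes below 0, from -0.51 to -0.06. The activator E2f1 was at 85.5, 106.2 and 88.4 CPM in control libraries against 82.3, 107.5 and 78.4 CPM after knockdown, with replicate 2 highest in both groups. E2f2, which represses E2F targets, was at 32.4 to 38.1 CPM in control libraries against 26.1 to 31.0 CPM after knockdown (log2 -0.33, SE 0.126, edgeR adjusted p = 0.113). Dp, the partner both E2F proteins need to bind DNA, was at 91.0, 93.0 and 103.7 CPM in control libraries against 63.1, 83.5 and 69.2 CPM after knockdown (log2 -0.41, SE 0.141, adjusted p = 0.0847).

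The retinoblastoma genes differed from each other in level. Per kilobase of exon, control libraries held 11.2 ± 1.88 CPM of Rbf and 3.31 ± 0.166 CPM of Rbf2 (SD, n = 3 each). Rbf2 was at 8.54 to 9.41 CPM in control libraries against 5.74 to 7.30 CPM after knockdown without overlap (log2 -0.51, SE 0.166, edgeR adjusted p = 0.0760) and had a log2 fold change of -0.53 without control replicate 3. Rbf overlapped between groups (log2 -0.22, SE 0.176, and -0.09 without control replicate 3). The E2f1 to E2f2, E2f1 to Rbf and Rbf to Rbf2 ratios overlapped between groups as well.

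Of the 6 origin recognition genes 5 could be tested and 0 passed. Orc1, the subunit whose abundance follows the cell cycle, was at 26.9, 27.9 and 31.1 CPM in control libraries against 28.4, 24.7 and 31.5 CPM after knockdown, so the groups overlapped fully (log2 -0.02, SE 0.132). Orc2, Orc4 and Orc6 had log2 fold changes of -0.38, -0.38 and -0.41, which became -0.08, -0.12 and -0.20 without control replicate 3. Orc5 was at 0.01 with all libraries and at 0.19 without that one, and the sign of Orc1 flipped there too, to 0.05. Of the exon bases of Orc6, 5.66% overlap Sting on the opposite strand, which was called higher (log2 1.50, edgeR adjusted p = 0.00891).

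Orc3, known in the fly as latheo, was listed at 7.10 CPM in control replicate 2 and at 0 in the other 5 libraries, and did not pass the filter on low counts. The annotation (BDGP6.54, chromosome 2R, 13202728 to 13206547, minus strand) places 100% of its exon bases inside exons of CG34315 on the same strand. CG34315 shows the reverse pattern, with 0.0573 CPM in control replicate 2 and 6.34 to 10.4 CPM in the others. Summed, the pair held 7.88, 7.16 and 10.4 CPM in control libraries against 6.34, 6.61 and 7.08 CPM after knockdown, or 8.497 ± 1.73 and 6.68 ± 0.375 CPM (SD, n = 3 each; exact 2-sided permutation p = 0.1, the smallest possible). The 0 values can thus not be read as a lack of Orc3 RNA.

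**Figure D4:**
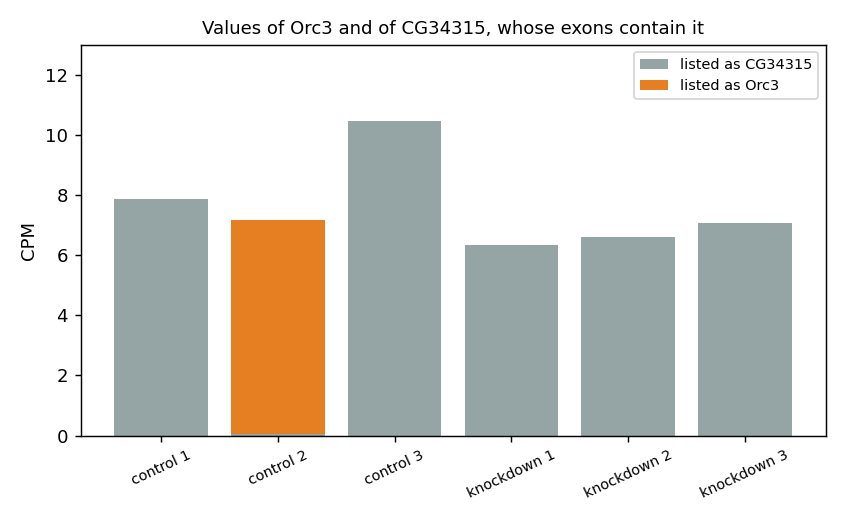
CPM listed as Orc3 (orange) and as CG34315 (grey) in each library, stacked. Control replicate 2 lists 7.10 CPM as Orc3 and the other 5 libraries list the whole amount as CG34315, while the sums lie between 6.34 and 10.4 CPM.

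Of the 3 licensing genes 0 passed, and all 3 had log2 fold changes below 0. dup, the fly Cdt1, was at 29.8, 35.8 and 49.9 CPM in control libraries against 18.3, 24.1 and 29.1 CPM after knockdown, without overlap (log2 -0.69, SE 0.238, edgeR adjusted p = 0.0871). With the replicate block it passed (-0.69, adjusted p = 0.0121), and without control replicate 3 the value was -0.45 (adjusted p = 0.190). Its inhibitor geminin was at 7.75, 9.37 and 13.4 CPM in control libraries against 6.47, 7.96 and 7.86 CPM after knockdown, with overlap (log2 -0.45, SE 0.229, and -0.19 without control replicate 3). Cdc6, the loader ATPase, had a log2 fold change of -0.43 (SE 0.223), and -0.18 without control replicate 3.

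The dup to geminin ratio of counts, which pairs the licensing factor with its inhibitor, was 3.84, 3.82 and 3.73 in control libraries and 2.83, 3.02 and 3.70 in knockdown libraries. The control ratios were close together although the level of each gene differed between those libraries. The log2 difference was -0.26 (SE 0.117, exact 2-sided permutation p = 0.1, adjusted 0.3), and knockdown replicate 3 lay at the edge of the control range.

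The MCM genes encode the subunits of the helicase ring. Of the 6 genes 0 passed, and their log2 fold changes ran from -0.80 for Mcm6 to 0.03 for dpa, the fly Mcm4. Mcm6 was at 50.4, 57.6 and 86.6 CPM in control libraries and at 26.2, 40.1 and 45.7 CPM in knockdown libraries, without overlap (log2 -0.80, SE 0.268, edgeR adjusted p = 0.0821). It passed with the replicate block (adjusted p = 0.0140), and without control replicate 3 its log2 fold change was -0.52.

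In contrast dpa was at 61.8, 67.2 and 103.1 CPM in control libraries against 71.5, 77.6 and 87.5 CPM after knockdown, so its knockdown libraries lay between control replicates 2 and 3. Without control replicate 3 it came to 0.30 (SE 0.137, edgeR adjusted p = 0.176). Mcm3 was at 28.9, 32.0 and 53.3 CPM in control libraries against 22.3, 29.7 and 34.5 CPM after knockdown, with overlap (log2 -0.40, SE 0.265, and -0.07 without control replicate 3). Mcm2, Mcm5 and Mcm7 had log2 fold changes of -0.14, -0.33 and -0.35, and of 0.12, 0.07 and -0.07 without that library. The medians of the MCM list were -0.34 with all libraries and 0.00 without control replicate 3. Summed over the 6 genes, control libraries held 231.4, 250.3 and 396.9 CPM and knockdown libraries 205.6, 242.3 and 275.3 CPM, so that the knockdown mean was 82.3% of the control mean and 100.1% of the mean of control replicates 1 and 2.

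Per kilobase of exon the MCM genes held 6.65 ± 2.01 CPM (Mcm7) to 25.2 ± 7.30 CPM (dpa) in control libraries (SD, n = 3 each). The lower bound is uncertain, since 81.7% of the exon bases of Mcm7 overlap asRNA:CR45871 on the opposite strand, listed at 25.6 to 48.2 CPM in control libraries, and the sources used here do not say whether counting used strand. Mcm6 has no intron in the annotated gene model used and dpa has 6.

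The genes that complete and activate the helicase gave no call. Mcm10, which acts on loaded rings at firing, was at 19.1, 20.9 and 32.0 CPM in control libraries against 13.1, 18.0 and 23.7 CPM after knockdown (log2 -0.40, SE 0.272, and -0.12 without control replicate 3), with overlap. Cdc45 was at 10.3, 12.4 and 13.2 CPM in control libraries against 9.65, 9.56 and 10.5 CPM after knockdown (log2 -0.28, SE 0.151). The GINS subunit genes Psf2 and Sld5 had log2 fold changes of -0.19 and -0.34, and -0.06 and -0.07 without control replicate 3. The Mcm10 to Mcm2 ratio was 0.391 to 0.421 in control and 0.271 to 0.410 in knockdown libraries (exact p = 0.2).

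The clamp PCNA was at 69.6, 66.0 and 101.5 CPM in control libraries and at 70.3, 68.2 and 76.3 CPM in knockdown libraries. The groups overlapped, with the knockdown libraries close to control replicates 1 and 2 (log2 -0.14, SE 0.181, and 0.09 without control replicate 3). Its loader is a complex of RFC subunits, and 0 of the 4 loader genes passed, with log2 fold changes below 0 in 3 of them and above 0 in RfC4.

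RfC3 was at 13.1, 13.2 and 20.4 CPM in control libraries against 8.07, 10.6 and 10.96 CPM after knockdown, without overlap (log2 -0.66, SE 0.224, edgeR adjusted p = 0.0855). It passed with the replicate block (adjusted p = 0.0369), and was at -0.40 without control replicate 3. RfC4 was at 51.1, 54.4 and 66.2 CPM in control libraries against 60.3, 72.1 and 76.6 CPM after knockdown (log2 0.28, SE 0.151, adjusted p = 0.230), and only scaling by total counts turned its sign (-0.06). Gnf1, the large subunit, and RfC38 had log2 fold changes of -0.21 and -0.26, and of -0.06 and 0.07 without control replicate 3. In the annotation 25.2% of the exon bases of RfC38 overlap Nup160 on the opposite strand. Nup160 was at 70.5 to 91.2 CPM in control libraries and at 89.5 to 99.4 CPM in knockdown libraries, so the RfC38 values are uncertain if counting ignored strand.

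The subunits of ribonucleotide reductase, the enzyme that makes deoxynucleotides, had fold changes of opposite sign. RnrS (BDGP6.54, chromosome 2R, 11983145 to 11985393, minus strand, 2 introns) was at 117.5, 127.3 and 147.7 CPM in control libraries and at 60.5, 89.6 and 85.4 CPM in knockdown libraries, without overlap. It fell to 60.0% of control (log2 -0.74, SE 0.180, edgeR adjusted p = 0.0338). Leaving out a control library, or knockdown replicate 1 or 3, ended the call (adjusted p between 0.0707 and 0.0900), as did upper quartile scaling (0.0520) and testing without a filter (0.0619), while the log2 fold change stayed between -1.08 and -0.58 in all 15 alternatives.

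RnrL, the large subunit, was at 103.8, 107.4 and 161.7 CPM in control libraries against 172.6, 146.1 and 167.2 CPM after knockdown. Only control replicate 3 lay within the knockdown range. The log2 fold change came to 0.38 (SE 0.194, edgeR adjusted p = 0.210), and without control replicate 3 RnrL passed as higher (0.63, SE 0.131, adjusted p = 0.0297). Scaling by total counts alone gave 0.02.

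The RnrL to RnrS ratio of counts needs no scaling between libraries. It was 0.884, 0.844 and 1.09 in control libraries and 2.85, 1.63 and 1.96 in knockdown libraries, so the groups did not overlap. The log2 difference was 1.16 (SE 0.264), the largest in size of the 12 ratios compared, and 0.94 to 1.34 without any 1 library (exact 2-sided permutation p = 0.1, the smallest possible, adjusted 0.3). The PCNA to RnrL ratio was 0.671, 0.615 and 0.627 in control and 0.407, 0.467 and 0.456 in knockdown libraries (log2 difference -0.53, SE 0.0717, exact p = 0.1, adjusted 0.3). The groups did not overlap in 4 ratios, dup to geminin, CycD to CycE, RnrL to RnrS and PCNA to RnrL. In the other 8 they did. RnrL to RnrS and PCNA to RnrL share a gene, so they are not separate observations. Ratios of other gene pairs were not computed as a background. Of single tested genes, 21.7% lay below and 20.1% above control without overlap. Taken by replicate number, 5 of the 8 overlapping ratios differed with 1 sign in all 3 pairs. These were CycE to dap, E2f1 to E2f2, E2f1 to Rbf, Cdk4 to Cdk2 and Mcm10 to Mcm2. The 4 ratios without overlap must have 1 sign in all 3 pairs, so their signs add nothing. An exact paired test of 3 pairs cannot go below p = 0.25.

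The chromatin assembly factor places histones behind the fork. Its large subunit gene Caf1-180 was at 8.56, 12.97 and 16.1 CPM in control libraries against 6.12, 11.1 and 9.68 CPM after knockdown, with overlap (log2 -0.48, SE 0.297, and -0.25 without control replicate 3). Caf1-105 was at 10.8, 12.01 and 13.7 CPM in control libraries against 9.69, 10.2 and 9.54 CPM after knockdown, without overlap (log2 -0.32, SE 0.147, edgeR adjusted p = 0.174). The ratio of the 2 overlapped between groups.

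Levels per kilobase of exon spanned a wide range in control libraries. RnrS (82.1 ± 9.69 CPM per kilobase) and PCNA (73.9 ± 18.2) were the highest of the 37 genes, followed by RfC4 (50.8 ± 7.05) and RnrL (48.2 ± 12.6). RnrS and PCNA did not differ beyond their spread (SD, n = 3 each), nor did RfC4 and RnrL. Caf1-180 (3.10 ± 0.934), Rbf2 (3.31 ± 0.166) and CycE (4.12 ± 1.18) were the lowest. In knockdown libraries the levels were 49.3 ± 9.86 for RnrS, 66.9 ± 3.89 for PCNA, 62.9 ± 5.45 for RnrL and 61.8 ± 7.47 for RfC4. The SD range of RnrS overlapped those of RnrL and RfC4 but not that of PCNA. Such ranges do not use that the genes were measured in the same libraries, so an overlap does not show equal levels.

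Among members with introns the medians of the classes lay close together, while the 2 members with 0 introns lay lower, too few to compare. The 20 tested members with 1 to 2 introns had a median log2 fold change of -0.36, the 9 with 3 to 5 introns -0.33 and the 6 with 6 or more -0.32, and the 2 with 0 introns (Mcm6 and Rbf2) were at -0.80 and -0.51. Over all tested protein-coding genes these medians were -0.05, -0.05, -0.05 and 0.03. Gene-level values do not separate spliced from unspliced RNA.

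Lists of other genes of replication and the G1/S step were also chosen with earlier results known. The 56 genes reported were all tested, and 7 fell and 0 rose, or 12.5% called lower beside the 9.63% over all genes. Their median log2 fold change was -0.37. Control replicate 3 held the highest control level for 38 of the 56, or 67.9%, beside 39.6% of all tested genes. Its level was a median of 1.27 times the mean of control replicates 1 and 2, and the median fold change without it is not given here. Of the 7 polymerase subunit genes 0 passed, and 0 of 8 genes that turn over cyclin E or Cdt1. The genes that fell were 3 of 17 fork genes, 2 of 3 nucleotide enzymes, 1 of 6 genes of the Myb and retinoblastoma complex and 1 of 9 genes of Cdc25 and cyclin-dependent kinases. Of 6 growth and Hippo pathway genes 0 passed.

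Of the 3 nucleotide enzymes dUTPase and Ts fell. dUTPase, which removes dUTP, was at 8.80, 8.04 and 9.61 CPM in control libraries and at 0.477, 1.91 and 1.14 CPM in knockdown libraries (log2 -2.90, SE 0.463, edgeR adjusted p = 0.0102). All of its exon bases overlap asRNA:CR45778 on the opposite strand, which also fell (log2 -0.79, SE 0.176, adjusted p = 0.0256; 0.0573 to 0.0936 without replicate 1 or 2 of either group). Summed with that gene, the locus held 117.9 ± 19.8 CPM in control libraries against 64.4 ± 10.3 CPM after knockdown (SD, n = 3 each), 54.6% of control, so the size of the dUTPase change is uncertain.

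Thymidylate synthase, Ts, named after its values were seen, was at 35.1, 36.6 and 47.2 CPM in control libraries against 18.5, 21.0 and 30.1 CPM after knockdown. It fell to 58.5% of control (log2 -0.77, SE 0.213, edgeR adjusted p = 0.0481), a call lost in 8 alternatives (0.0559 to 0.151), among them leaving out any 1 library but knockdown replicate 3. The deoxynucleoside kinase gene dnk did not pass (log2 -0.72, SE 0.247, adjusted p = 0.0848) but did with the replicate block, DESeq2 and total counts only (0.0161 to 0.0348), and its knockdown libraries also lay below its control libraries.

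**Figure D5:**
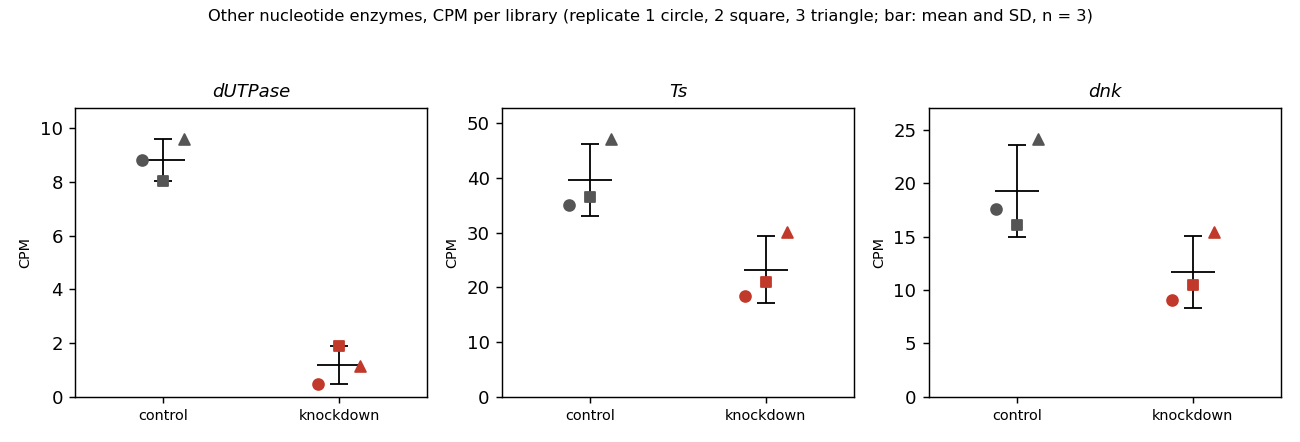
CPM in each library (points; circle, square and triangle for replicates 1, 2 and 3) with mean and SD (bars, n = 3 per group) for dUTPase, Ts and dnk. In all 3 genes every knockdown library lies below every control library; dUTPase shares all of its exon bases with an antisense gene.

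Among the fork genes rnh1, which encodes RNase H1, an enzyme that cuts RNA in RNA-DNA hybrids, was at 9.73, 8.11 and 9.54 CPM in control libraries against 4.93, 4.46 and 4.76 CPM after knockdown. It fell to 51.7% of control (log2 -0.95, SE 0.159, edgeR adjusted p = 0.0113), and the call was kept in all 15 alternatives. timeout fell to 53.5% of control (log2 -0.90, SE 0.232, adjusted p = 0.0390), a call lost in 6 alternatives (adjusted p between 0.0569 and 0.128), among them leaving out control replicate 2 or 3 or knockdown replicate 1 or 3. Cdc7, the kinase that fires origins, named after its values were seen, fell to 69.5% of control (adjusted p = 0.0434), a call lost in 8 alternatives (0.0502 to 0.145), among them leaving out any 1 library but knockdown replicate 2.

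Cks30A, a subunit that binds cyclin-dependent kinases, fell from 15.7 ± 3.08 to 7.57 ± 1.99 CPM (SD, n = 3 each; log2 -1.05, SE 0.241, edgeR adjusted p = 0.0280), a call lost in 6 alternatives (adjusted p between 0.0504 and 0.0870), among them leaving out any 1 library but knockdown replicate 2. Myb, the transcription factor that works with the retinoblastoma proteins in the fly, was at 84.0, 76.4 and 88.1 CPM in control libraries against 16.9, 31.9 and 50.3 CPM after knockdown (log2 -1.33, SE 0.350, adjusted p = 0.0424), a call lost in 7 alternatives (adjusted p between 0.0512 and 0.113), among them leaving out any 1 library but knockdown replicate 3. CG46440, on the same strand, covers 99.1% of its exon bases and was at 29.1 to 34.8 CPM in control libraries against 51.3, 45.3 and 17.5 CPM after knockdown. Summed, the locus held 113.8 ± 7.31 CPM in control libraries against 71.1 ± 5.33 CPM after knockdown, 62.4% of control, with much less spread between knockdown libraries than Myb alone.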

How the data were processed

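Estimated counts for genes and transposon copies were deposited by the authors as unscaled whole numbers; whether each stands for a separate read is not known. Per the submitters' processing notes, Trimmomatic, TopHat2 and build BDGP6 were used (no versions listed). The sources used here do not give the counting tool, its strand setting or its handling of reads with several hits. Positions, introns (of the longest transcript) and exon lengths came from Ensembl release 115 (BDGP6.54), matched by gene identifier.

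All 14167 features passing filterByExpr were tested with edgeR 4.0.16 in R 4.3.3 (TMM scaling, glmQLFit, glmQLFTest, group as the only term), with Benjamini-Hochberg adjustment and a threshold of 0.05. The SE equals the size of the log2 fold change divided by the root of F. Count ratios of 12 gene pairs were compared with SciPy 1.17.1. The members and lists were chosen with earlier results of these data known. All members were named, and up to 6 called genes each way from the other pathway lists; Ts, Cdc7, dnk, the RPA genes and overlapping genes were added after their values were seen, and the symbol Tk was dropped from those lists because it is tachykinin in the fly. Of the 73 names left in those lists 56 matched a symbol of the table; the others, and a further gene, are not used here. Same-numbered libraries of the groups deviated together from their group means (correlations of 0.160, 0.239 and 0.317, against -0.229 to 0.0506 for other pairs). The numbers were therefore used as pairs in the replicate block and in the signs of ratios by replicate number. The calls with group as the only term and the permutation tests use no pairing. The labels state none, and the correlations come from these same counts. Libraries of a group differed by more than sampling noise (chi-square values from 103.3 to 1442 for each degree of freedom, highest for pairs with control replicate 3). Alternatives were 3 other scalings, 2 other filters, DESeq2 1.42.0, limma 3.58.1 (voom), genes only, the block and leaving out each library.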

Additional observations from a re-analysis of the deposited data

How the results depend on the processing

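Of the 37 tested members, 2 were called lower, against 0 with upper quartile scaling, 0 with no filter, 1 with a minimum mean of 5 CPM, 11 with total counts only, 9 with DESeq2 and 7 with the replicate block. Leaving out 1 library gave 0 to 3 lower and 0 to 1 higher. Over all features, 1177 were higher and 1208 lower, against 733 and 3135 with total counts only (which shifts the median of all genes from -0.02 to -0.36), 760 and 710 with no filter, 1792 and 1958 with DESeq2, and 1587 and 1869 with the replicate block; leaving out 1 library gave 449 to 1119 higher and 310 to 1215 lower. The cause of these moves was not tested, except that leaving out a library leaves fewer samples. The Brr2 transcript kept its call in all 15 alternatives. Log2 fold changes near 0 changed sign: Orc1 with upper quartile scaling (0.10), 5 CPM (0.072) and genes only (0.004), Orc5 with total counts (-0.34) and no filter (-0.009), dpa (-0.34) and RfC4 (-0.064) with total counts, and CycD (0.088 and 0.058), Cdk4 (0.078 and 0.047) and E2f1 (0.055 and 0.023) with upper quartile scaling and 5 CPM. Without 1 library the ranges were -0.11 to 0.054 for Orc1, -0.09 to 0.19 for Orc5, -0.24 to 0.12 for Mcm2, -0.10 to 0.30 for dpa, -0.49 to 0.066 for Mcm5, -0.25 to 0.088 for PCNA, -0.26 to 0.069 for RPA2, -0.41 to 0.073 for RfC38, -0.059 to 0.012 for CycD, -0.19 to 0.091 for Cdk4 and -0.23 to 0.042 for E2f1, and, for log2 ratios, -0.002 to 0.26 for E2f1 to Rbf and -0.34 to 0.076 for Caf1-180 to Caf1-105. The replicate block changed no other call among the members than those named.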
